A study of Mus musculus with 12 samples.

Results

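The genes that encode the proteins of the cytosolic ribosome were examined in bulk RNA sequencing of mouse bone marrow cells. They were taken from the deposited tables by their symbols: Rpl or Rps followed by a digit, together with Rplp0, Rplp1, Rplp2 and Rpsa, and without the Rps6k kinases and rows marked as pseudogenes by the ending -ps. This gave 89 of 24444 gene symbols. Of these, 48 rows belonged to the large subunit and 31 to the small subunit. A further 9 rows were paralogues that were listed apart (Rpl3l, Rpl7l1, Rpl10l, Rpl22l1, Rpl36al, Rpl39l, Rps4l, Rps27l and Rps27rt), and Rps19bp1 encodes a protein that binds Rps19 and is not itself part of the ribosome. The annotation gave Rpl37rt, Rpl32l and Rps4l as processed pseudogenes, although their symbols meet the rule.

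All mice were of the C57BL/6 strain, and the 12 libraries were stranded, poly(A)-selected and made from total RNA of marrow cells. MN1_KO (replicates 5, 7 and 8) came from Hopx-/- mice with MN1 overexpression, and MN1_WT (replicates 2, 3 and 4) from Hopx wild-type mice with MN1 overexpression, both with a labelled age of 16 weeks. The groups aged_KO (replicates 3, 9 and 10) and aged_WT (replicates 1, 6 and 7) came from Hopx-/- and Hopx wild-type mice without MN1 overexpression, called old and labelled as 18 weeks of age. The Hopx protein carries a homeodomain but lacks DNA binding, and forced expression of the coregulator MN1 in mouse marrow cells causes myeloid leukaemia. The labels give neither the design of the knockout allele, nor how MN1 was introduced, nor sex, batch or any sorting of cells. They do not say that the libraries of a group came from separate animals, so p-values measure the spread between these libraries, which may be partly technical. MN1 status, labelled age and deposited table coincide, so effects of these 3 cannot be told apart.

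Each ribosome holds 1 copy of nearly every ribosomal protein, and cells keep the mRNAs of these proteins in close proportion. In mammals these mRNAs begin with a C followed by a run of pyrimidines, the 5′ terminal oligopyrimidine (TOP) motif, through which mTOR and the RNA-binding protein LARP1 control their translation. Blood formation is sensitive to their supply: loss of 1 allele of any of several ribosomal protein genes causes Diamond-Blackfan anaemia in humans, a failure of red cell production.

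Library totals ran from 16544407 to 28409046 counts. The pan-leukocyte gene Ptprc was at 434 to 1150 CPM (counts scaled to the library total) in every library, and the 12 markers of neutrophils summed to 26000 to 137000 CPM, so granulocyte mRNA was abundant throughout. Hopx itself was at 0 to 0.121 CPM in aged_KO libraries, against 14.2 to 33.6 CPM in aged_WT libraries. It was at 2.92 to 3.51 CPM in MN1_KO libraries, against 14.1 to 27.9 CPM in those labelled MN1_WT. Mn1 was at 22.1 to 47.3 CPM in MN1_KO. Of the MN1_WT libraries, replicate 3 had Mn1 at 36.4 CPM, but replicates 2 and 4 had it at only 0.395 and 0.16 CPM, within the range of 0.0704 to 1.18 CPM of the aged libraries. Replicates 2 and 4 thus went against their label. For comparisons with MN1_WT, the median fold change of the members is also given without them. Fold changes of single genes, group means and overlap counts include them. They also stood apart in Xist, at 18.1 and 2.4 CPM against 585 to 4940 CPM in the other MN1 libraries. The summed Y-linked genes were at 8.05 to 21.6 CPM in MN1_KO, but at 241 CPM in MN1_WT replicate 2, 81.8 CPM in replicate 3 and 229 CPM in replicate 4. The aged libraries had 0 to 0.152 CPM. Sex-linked mRNA thus differed between the groups in each comparison that uses MN1 libraries, and its part in them was not tested.

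In aged_KO the 89 genes took a smaller part of the library than in aged_WT. Their counts summed to 3.72, 3.99 and 5.49% of all counts in aged_KO replicates 3, 9 and 10, and to 6.44, 7.23 and 7.74% in aged_WT replicates 1, 6 and 7. Every aged_KO library lay below every aged_WT library, with means of 4.40% ± 0.952 in aged_KO and 7.14% ± 0.66 in aged_WT (SD, n = 3 each). The order was turned round in the MN1 libraries. The share was 6.65, 6.45 and 6.46% in MN1_KO replicates 5, 7 and 8, and 4.75, 5.59 and 4.02% in MN1_WT replicates 2, 3 and 4. Here every knockout library lay above every wild-type library, and MN1_WT replicate 3, the library with high Mn1, was the highest of its group. The means were 6.52% ± 0.115 in MN1_KO and 4.79% ± 0.789 in MN1_WT (SD, n = 3 each). In bulk samples, fewer cells rich in these mRNAs and less of them per cell cannot be told apart.

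**Figure D1:**
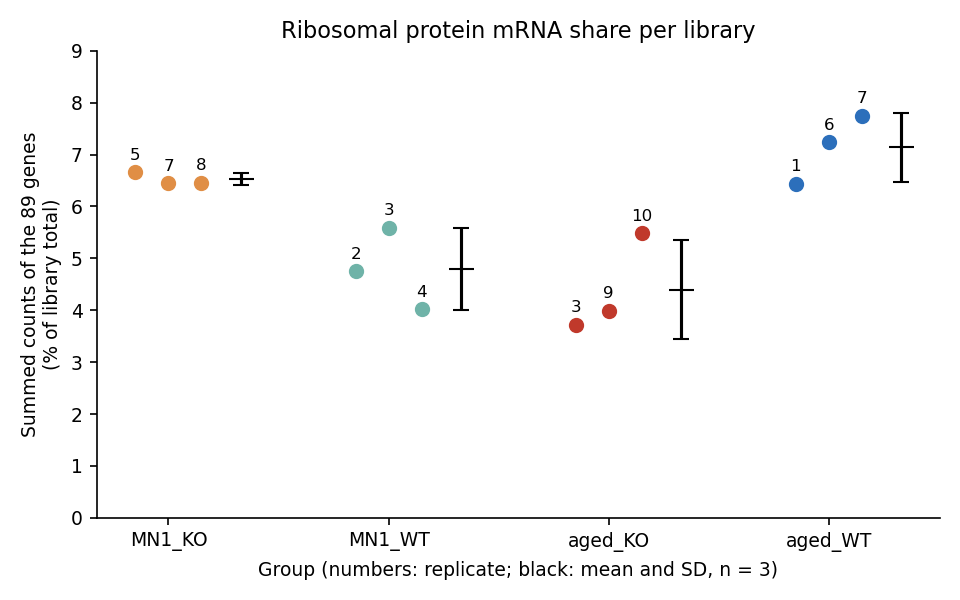
Summed counts of the 89 genes as a percent of each library's total (y axis), by group (x axis); coloured points are libraries with their replicate number, black bars the mean and SD of 3 libraries. The aged_KO libraries sit at 3.72 to 5.49%, all below the aged_WT libraries at 6.44 to 7.74%, whereas the MN1_KO libraries sit at 6.45 to 6.65%, all above the libraries labelled MN1_WT at 4.02 to 5.59%.

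Per unit of length, in TPM (transcripts scaled for length to a fixed total), the same genes took 12.7 to 18.0% of MN1_KO libraries, 9.53 to 15.2% of MN1_WT libraries, 8.47 to 11.2% of aged_KO libraries and 13.1 to 16.3% of aged_WT libraries. On this scale MN1_KO and MN1_WT overlapped, while aged_KO still lay below aged_WT. The highest median TPM over the 12 libraries belonged to Rps12 at 3572, Rps29 at 3104, Rps9 at 3100, Rpl41 at 2769 and Rps23 at 2746. Rps23 lies at the decoding centre, and Rpl41 is the shortest protein of the large subunit. The lowest were Rpl32l and Rpl10l, a testis paralogue of Rpl10, both at 0, then Rpl39l at 0.295, Rpl3l, a paralogue of Rpl3 in striated muscle, at 1.57, and Rps4l at 5.51. Rpl10l had 0 counts in all 12 libraries together, Rpl32l 4 and Rpl39l 101. These 3 rows did not pass the filter on low counts within either table, which left 86 of 89 members tested there, and Rpl39l passed in the fit of all 12 libraries, which left 87.

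The members varied less in their share of their own sum than in their levels. Among the 79 rows left after the listed paralogues and Rps19bp1 were set aside, the coefficient of variation of CPM over the 12 libraries had a median of 25.2%. The share of each row in their summed TPM had a median coefficient of variation of 9.45%. The 2 values are on different scales, and division by the set's own sum removes variation common to its rows. No other gene set was measured in this way. Rps19, the gene most often mutated in Diamond-Blackfan anaemia, was the steadiest by share. It held 1.30, 1.29, 1.31 and 1.28% of the sum in MN1_KO, MN1_WT, aged_KO and aged_WT, while its CPM varied by 23.4%. The stalk proteins were less steady: Rplp2 held 1.97% of the sum in MN1_KO and 2.05% in MN1_WT, and 1.43% in aged_KO and 1.45% in aged_WT. Rplp1, its partner in the stalk that recruits elongation factors, went the other way, with 1.45% in MN1_KO, 1.60% in MN1_WT, 1.87% in aged_KO and 2.06% in aged_WT. The ratio of summed TPM of the large subunit to the small subunit averaged 1.21 ± 0.028 in MN1_KO, 1.22 ± 0.00354 in MN1_WT, 1.15 ± 0.0258 in aged_KO and 1.15 ± 0.0108 in aged_WT (SD, n = 3 each).

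Several members share nearly all of their sequence with another row of the table, and their counts cannot be read alone. The retrogene Rps27rt has the same coding sequence as Rps27, with 0 mismatches over 255 bases. It is shown because no read within it can be assigned to either gene:
Rps27 and Rps27rt: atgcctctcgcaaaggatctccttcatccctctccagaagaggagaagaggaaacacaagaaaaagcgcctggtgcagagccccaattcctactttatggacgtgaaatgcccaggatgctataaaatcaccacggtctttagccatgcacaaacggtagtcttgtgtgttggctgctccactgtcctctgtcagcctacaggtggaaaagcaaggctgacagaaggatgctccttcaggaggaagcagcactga
The sequence is the GENCODE vM21 coding sequence on GRCm38. Rps27 lies on chr3:90212522-90213651 and Rps27rt on chr9:114982366-114982739, both on the minus strand. The deposited counts gave 99.3% of the pair's total to Rps27rt. Rps27 itself stood at 1.44 to 4.01 CPM in all libraries other than aged_KO replicate 9, where it was at 12.4 CPM. In that library its effective length, the length that RSEM used to scale its counts, was 298 bases, against 471 to 500 bases elsewhere. Values printed for Rps27rt below are therefore best read as those of the pair.

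The same split took in 3 more members. The processed pseudogene Gm15772 held 93.2% of its counts with Rpl26, Gm12191 held 94.0% with Rpl30, and Rpl34-ps1 held 83.3% with Rpl34, at identities of 99.4 to 99.7%. Rpl26 alone averaged 36.0 CPM in aged_KO against 53.7 CPM in aged_WT, at a log2 fold change of -0.39 ± 0.215 (SE; adjusted p = 0.201, edgeR). With the counts of Gm15772 added, the log2 fold change of Rpl26 in aged_KO against aged_WT was -0.63 ± 0.175 (SE; adjusted p = 0.0237, edgeR). Rpl30 and Rpl34, each called lower alone, were called lower with their copies too, at -0.69 ± 0.154 and -0.76 ± 0.182 (SE; adjusted p = 0.0101 and 0.0131, edgeR). Rps27 with Rps27rt was at -0.92 ± 0.18 (SE; adjusted p = 0.00578, edgeR).

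**Figure D2:**
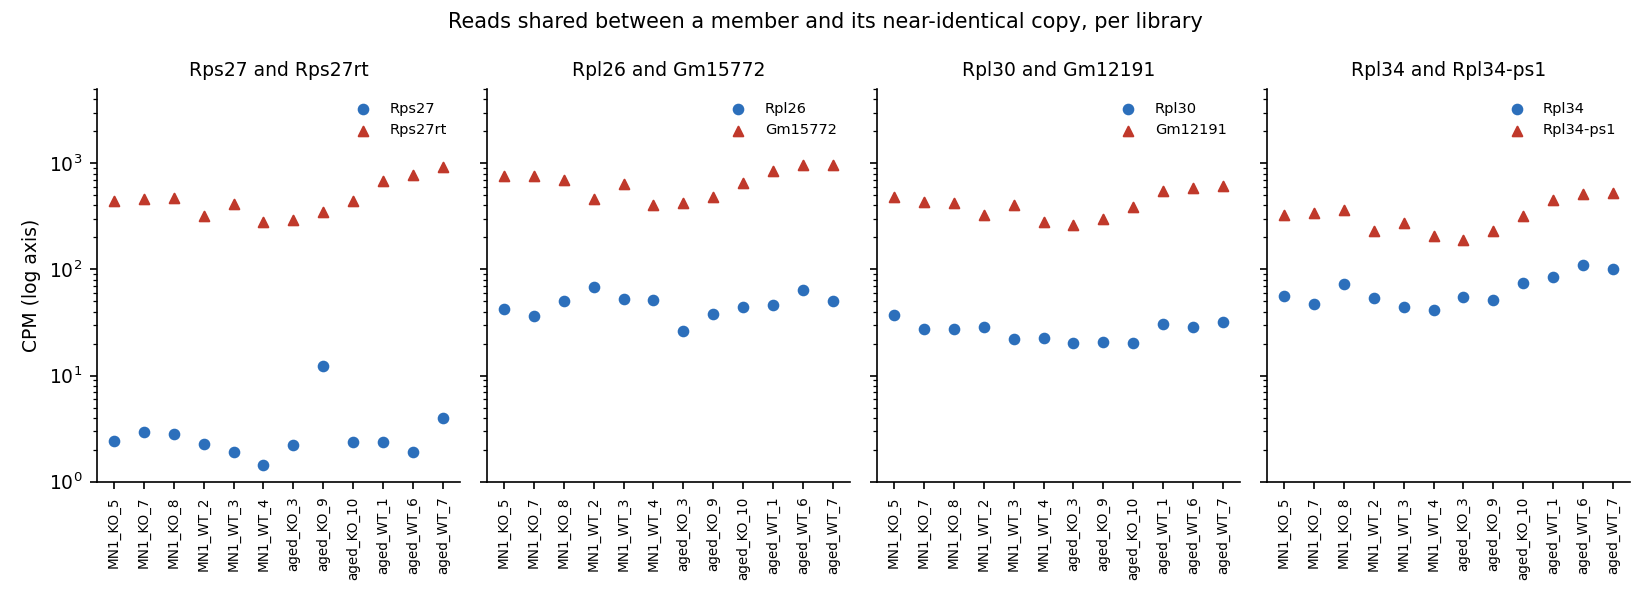
CPM on a log axis (y axis) of 4 members (circles) and their near-identical copies (triangles) in each of the 12 libraries (x axis). In every library the copy holds most of the pair's counts, and Rps27 stands higher in aged_KO replicate 9, at 12.4 CPM, than in the other libraries.

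In aged_KO against aged_WT, 47 of 86 members were lower at an adjusted p below 0.05 and 0 were higher (edgeR's quasi-likelihood test with Benjamini-Hochberg adjustment over all genes tested). Of all 12771 genes tested, 15.8% were lower and 15.6% higher. The median log2 fold change was -0.53 over the members and -0.02 over all genes tested. Overlap of groups was counted on CPM divided by edgeR's TMM scaling factors, here and in the other comparisons. On that scale 57 of 86 members had no overlap between groups, all lower in aged_KO, against 25.0% of all genes in that direction. By subunit, 29 of 47 large-subunit rows and 15 of 31 small-subunit rows fell, with medians of -0.55 and -0.53 on the log2 scale. Of the 18 genes whose human counterparts are linked to Diamond-Blackfan anaemia, 11 fell, among them Rps7, Rpl35 and Rps24.

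The smallest p in aged_KO against aged_WT belonged to Rps27rt. It had 295, 348 and 442 CPM in aged_KO replicates 3, 9 and 10, and 673, 769 and 918 CPM in aged_WT replicates 1, 6 and 7. Replicate 10 was the highest aged_KO library and still lay below every aged_WT library. The log2 fold change was -0.94 ± 0.179 (SE; adjusted p = 0.00539, edgeR).

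Rpl22, a large-subunit protein that is needed for the development of αβ T cells in mice, had 164, 180 and 239 CPM in aged_KO and 338, 358 and 389 CPM in aged_WT. The groups were apart, and the log2 fold change was -0.71 ± 0.153 (SE; adjusted p = 0.00848, edgeR). Its paralogue Rpl22l1, whose mRNA is held down by Rpl22 in mice, fell as well, by 0.57 ± 0.151 on the log2 scale (SE; adjusted p = 0.0192, edgeR), with 70.7, 79.2 and 107 CPM in aged_KO against 138, 145 and 151 CPM in aged_WT. Both genes of the pair were thus lower in every aged_KO library than in any aged_WT library.

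Rpl39, a small protein of the peptide exit tunnel encoded on the X chromosome, had 206, 233 and 287 CPM in aged_KO and 423, 438 and 441 CPM in aged_WT. The aged_WT libraries lay close together and the aged_KO libraries were all below them, with a log2 fold change of -0.66 ± 0.143 (SE; adjusted p = 0.00888, edgeR). The other X-linked members, Rpl10, Rpl36a and Rps4x, fell too, so that 4 of 4 did, at -0.42 to -0.73 on the log2 scale.

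Rps7, a small-subunit protein that takes part in maturation of 18S rRNA, had 501, 587 and 744 CPM in aged_KO and 1080, 1168 and 1197 CPM in aged_WT, a log2 fold change of -0.73 ± 0.165 (SE; adjusted p = 0.0106, edgeR). Rps15a, also of the small subunit, had 389, 429 and 530 CPM in aged_KO against 752, 756 and 845 CPM in aged_WT. Both genes had replicate 10 as the highest aged_KO library and no overlap between the groups. Rpl13a, a large-subunit protein that also takes part in interferon-induced silencing of translation in human monocytes, had 567, 705 and 1017 CPM in aged_KO and 1417, 1639 and 1747 CPM in aged_WT. Its log2 fold change of -0.88 ± 0.213 was the second largest decrease of the members (SE; adjusted p = 0.0139, edgeR). Rpl21 and Rpl35, which lies beside the exit tunnel, fell by 0.67 ± 0.161 and 0.70 ± 0.172 on the log2 scale (SE; adjusted p = 0.0139 and 0.0142, edgeR).

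**Figure D3:**
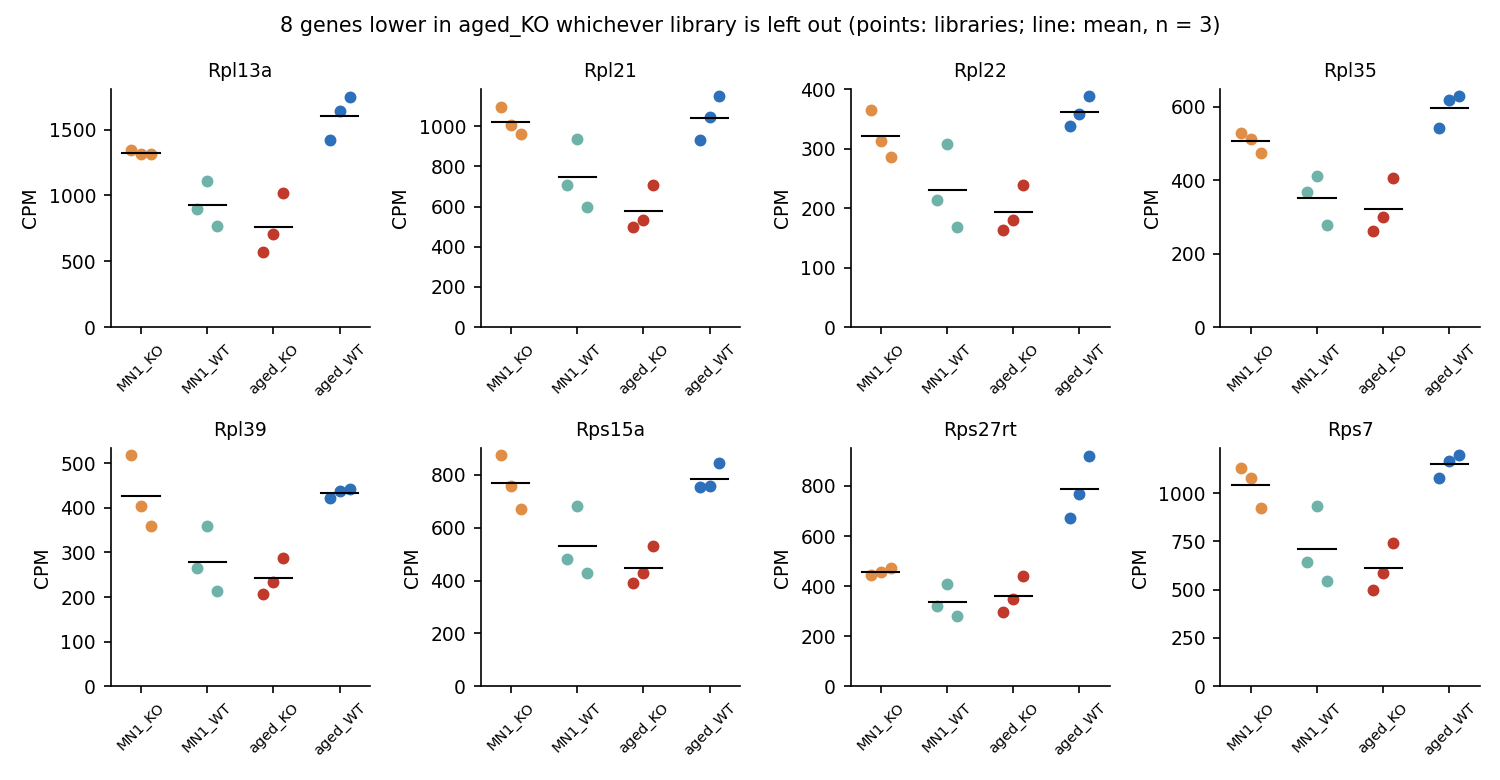
CPM (y axis) of 8 members in the 12 libraries by group (x axis); points are libraries, lines the mean of 3. These members were called lower in aged_KO against aged_WT whichever library of these groups was left out. Their choice by such calls favours groups that lie apart. In each panel the 3 aged_KO libraries lie below the 3 aged_WT libraries, for example at 295 to 442 CPM against 673 to 918 CPM for Rps27rt.

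Among functional subsets, the 5S RNP proteins Rpl5 and Rpl11, which bind Mdm2 when ribosome assembly fails, both fell in aged_KO. Rpl5 was at -0.49 ± 0.147 and Rpl11 at -0.58 ± 0.162 on the log2 scale (SE; adjusted p = 0.0328 and 0.0242, edgeR). Of the stalk, Rplp1 fell, at -0.66 ± 0.218 (SE; adjusted p = 0.0464, edgeR), while Rplp2 at -0.57 ± 0.193 and Rplp0 at -0.33 ± 0.157 did not pass (SE; adjusted p = 0.0514 and 0.143, edgeR). The members farthest above the median were Rps27, at 1.30 ± 0.796, and Rps4l, at 0.27 ± 0.473 (SE; adjusted p = 0.261 and 0.703, edgeR), both among the rows with the fewest counts. Rpl7l1, a paralogue of Rpl7, was at 0.11 ± 0.099 (SE; adjusted p = 0.443, edgeR), with 94.0, 85.3 and 106 CPM in aged_KO and 98.6, 102 and 98.8 CPM in aged_WT. Its groups overlapped.

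The number of members called depended on single libraries. Without aged_KO replicate 10 it was 79. Without aged_KO replicate 3 or 9 it was 11 each, without aged_WT replicate 6 or 7 it was 10 each, and without aged_WT replicate 1 it was 36. In the 4 fits that gave 10 or 11, the members called made up 11.5 to 12.6% of those tested, close to the 10.0 to 11.9% of all genes called lower in the same fits. Without aged_KO replicate 10 the shares were 91.9% of members and 17.1% of all genes, and without aged_WT replicate 1 they were 41.4% and 13.6%. The median of the members was -0.71 to -0.38 over the 6 fits. The 8 genes Rps27rt, Rpl22, Rpl39, Rps7, Rps15a, Rpl13a, Rpl21 and Rpl35 were called lower in each of these 6 fits. The share of all genes called lower in each of the 6 was not counted, so the 8 cannot be set against it. When all 12 libraries were fitted together, so that the spread of the MN1 libraries entered the error, 7 members were lower, 8.05% of those tested against 4.18% of all genes, and the median was -0.54.

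Markers of other cells moved with these genes in aged_KO against aged_WT. All 15 B cell markers fell, their sum being 34.8 to 50.6 CPM in aged_KO against 598 to 1310 CPM in aged_WT. None of the 15 was at 0 in either group. T and NK cell markers fell in 13 of 14 cases, with sums of 125 to 200 CPM in aged_KO and 241 to 358 CPM in aged_WT. Of 16 erythroid markers, 15 passed the filter and 9 of these fell, with sums of 917 to 1400 CPM in aged_KO and 2150 to 8080 CPM in aged_WT. Hbb-bs was at 0 in every aged_KO library, and in every MN1_KO library too. Neutrophil markers rose in 8 of 12 cases and primary granule markers in 5 of 6. Stem and progenitor markers fell in 4 of 8 cases, with sums of 249 to 324 CPM in aged_KO and 385 to 418 CPM in aged_WT. Their part in the lower ribosomal protein mRNA was not tested.

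Other parts of the translation machinery were read from set lists in aged_KO against aged_WT. Of the proteins of the ribosome that the symbol rule leaves out, Gnb2l1 (Rack1) fell, at -0.48 ± 0.146 (SE; adjusted p = 0.0331, edgeR), while Fau, which is made as a fusion with a ubiquitin-like protein, was at -0.41 ± 0.182 and did not pass (SE; adjusted p = 0.113, edgeR). Of 19 translation factors and other mRNAs with TOP starts, 6 fell and 0 rose, at a median of -0.33 on the log2 scale. Eif3m and Eif3e, subunits of initiation factor eIF3, and Tpt1 fell by 0.55, 0.54 and 0.55. Mitochondrial ribosomal proteins were called lower in 13 of 77 cases, 16.9%, close to the 15.8% of all genes, with a median of -0.21. Of 22 genes for ribosome assembly only Bccip, a chaperone of Rpl23, fell, at -0.40 ± 0.129 (SE; adjusted p = 0.0399, edgeR), and the median was -0.10. Of 12 genes of RNA polymerase I transcription, Polr1c fell by 0.65 and Polr1a rose by 0.35. Of 12 regulators of TOP mRNAs, Larp1 rose by 0.42 ± 0.102 and Eif4ebp2, a translational repressor below mTOR, by 0.38 ± 0.117 (SE; adjusted p = 0.0147 and 0.0363, edgeR). These 2 made up 16.7% of the 12, close to the 15.6% of all genes called higher, and 0 of the 12 fell.

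In MN1_KO against the libraries labelled MN1_WT, 0 of 86 members passed the threshold in either direction in edgeR, as did 0.0% of the 13525 genes tested. DESeq2 called 3 members higher and 0 lower, against 1.62% of all genes higher and 2.56% lower in that test. At an unadjusted p below 0.05 there were 30 members in edgeR, among 1353 genes of all. The smallest adjusted p of a member was 0.292. The values nevertheless lay on 1 side: 84 of 86 log2 fold changes were above 0, against 7200 of 13525 over all genes, with a median of 0.44 over the members and 0.03 over all genes. In 66 members the MN1_KO libraries were all above the MN1_WT libraries after TMM scaling, against 7.94% of all genes in that direction. Without that scaling some of these overlapped, for example Rpl12 at 785 CPM in MN1_KO replicate 8 and 876 CPM in MN1_WT replicate 3. In 1 member, Rps4l, the MN1_KO libraries were all below, against 7.35% of all genes.

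Rpl36a, which lies at the exit site for tRNA, had the smallest p. It had 366, 354 and 334 CPM in MN1_KO replicates 5, 7 and 8, against 221, 278 and 182 CPM in the libraries labelled MN1_WT. The groups were apart, with replicate 3 the highest of MN1_WT. The log2 fold change was 0.62 ± 0.174 (SE; adjusted p = 0.292, edgeR). Rpl39 had 518, 404 and 360 CPM in MN1_KO and 264, 360 and 214 CPM in MN1_WT, so that its groups nearly met at 360 CPM without overlapping, and its log2 fold change was 0.59 ± 0.193 (SE; adjusted p = 0.376, edgeR). Rps23, Rps24 and Rpl32 followed, at 0.53 to 0.57 on the log2 scale and with no overlap between the groups. The 2 members below 0 were Rps4l, at -2.24 ± 0.647, and Rpl26, at -0.43 ± 0.258 (SE; adjusted p = 0.308 and 0.666, edgeR). Rpl26 with its copy was at 0.49 ± 0.183 (SE; adjusted p = 0.439, edgeR).

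Without MN1_WT replicates 2 and 4, a single MN1_WT library was left and was assumed to vary like the MN1_KO libraries. The median of the members was then 0.41, 84 of 86 were above 0 and 0 passed. Leaving out single libraries gave medians of 0.34 to 0.48 and 0 members called in each fit. B cell markers summed to 48.9 to 69.4 CPM in MN1_KO, and in MN1_WT to 71.8 CPM in replicate 3 and to 454 and 311 CPM in replicates 2 and 4. Stem and progenitor markers summed to 1070 to 4690 CPM in MN1_KO, and in MN1_WT to 4279 CPM in replicate 3 and 586 and 381 CPM in replicates 2 and 4. T and NK cell markers summed to 179 to 239 CPM in MN1_KO and 379 to 507 CPM in MN1_WT, replicate 3 being the lowest of its group, and Ptprc was at 434 to 606 CPM in MN1_KO and 687 to 1070 CPM in MN1_WT, so that both were apart. No gene of these 3 lists was at 0 in these groups. Their part in the values of the ribosomal protein genes was not tested.

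**Figure D4:**
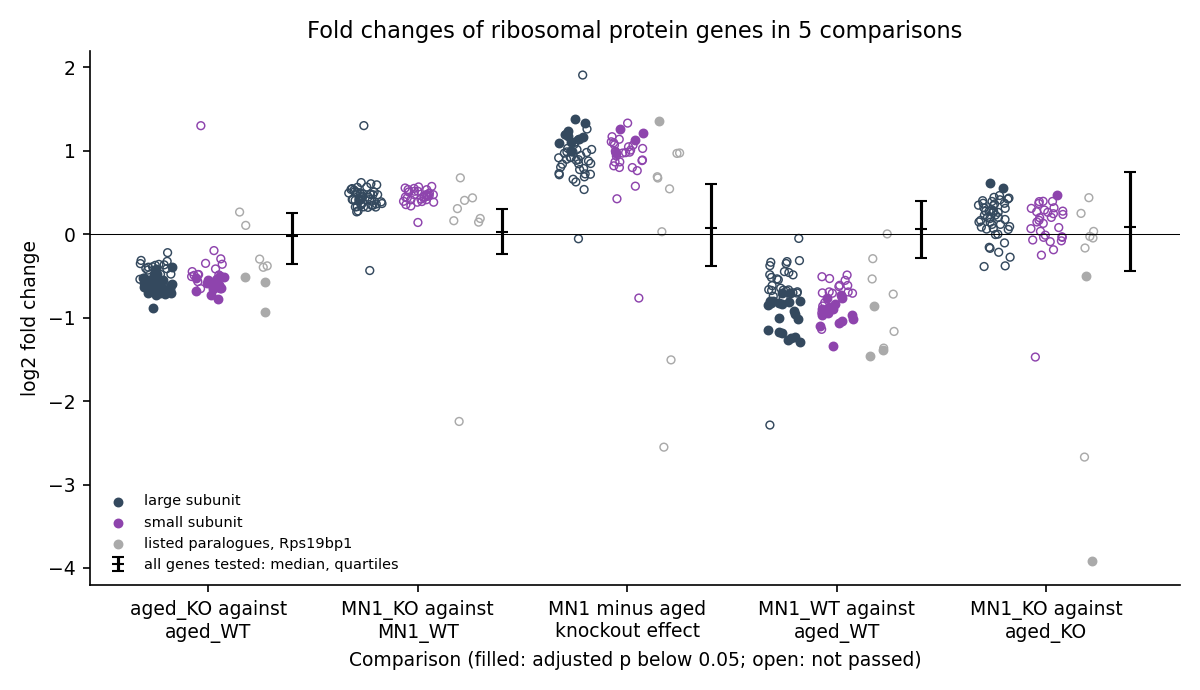
Log2 fold change (y axis) of each member tested in 5 comparisons (x axis), split into large subunit, small subunit and listed paralogues with Rps19bp1; filled points passed an adjusted p of 0.05 and black bars give the median and quartiles of all genes tested. Most members lie below 0 in aged_KO against aged_WT (median -0.53) and above 0 in MN1_KO against MN1_WT (median 0.44, 0 filled), and rows with few counts such as Rps4l lie far from the others.

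The difference between the knockout effects was tested directly, as the effect in the MN1 libraries minus that in the aged libraries, in a fit of all 12 libraries. It was above 0 at an adjusted p below 0.05 for 15 of 87 members and below 0 for 0, against 1.41% and 1.92% of the 13937 genes tested (edgeR). The median difference was 0.97 over the members and 0.08 over all genes. Rpl39 had the smallest p, with a difference of 1.24 ± 0.249 (SE; adjusted p = 0.0285, edgeR), made up of 0.59 in the MN1 and -0.66 in the aged libraries. Rps27rt followed at 1.36 ± 0.274, Rps15a at 1.12 ± 0.236 and Rps7 at 1.26 ± 0.27 (SE; adjusted p = 0.0291, 0.0342 and 0.0359, edgeR). Of the 15, 10 were large-subunit rows, 4 small-subunit rows and 1 the retrogene Rps27rt. The members farthest below the median were Rps4l, at -2.55 ± 0.847, and Rpl39l, at -1.51 ± 2.223 (SE; adjusted p = 0.114 and 0.717, edgeR).

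These calls depended on single libraries, among them those that went against their label. Without MN1_WT replicates 2 and 4, a single MN1_WT library was left. The median difference was then 0.87 over the members and 0.02 over all genes. The count of members above 0 that passed was 0 without either of these 2 libraries alone and without MN1_KO replicate 7. It was also 0 without aged_KO replicate 3 or 9, and without any 1 aged_WT library. In the fits with a count of 0 that left out 1 library, 0.148 to 0.571% of all genes passed above 0. The count was 3 without MN1_KO replicate 5 (3.45% of members, 0.927% of all genes) and 17 without MN1_KO replicate 8 (19.5% and 2.05%). It was 41 without aged_KO replicate 10 (47.1% and 0.84%) and 53 without MN1_WT replicate 3 (60.9% and 13.6%). Medians stayed between 0.81 and 1.16 over these fits. DESeq2 gave 65 higher and 1 lower, against 5.09% and 7.0% of all genes.

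The 4 groups allow 2 more comparisons, of MN1 with aged libraries at the same Hopx genotype. They share groups with the comparisons above, so each is given by its own values. In MN1_WT against aged_WT, 39 of 87 members fell and 0 rose, against 2.58% of the 13937 genes lower and 1.0% higher (edgeR). The median log2 fold change was -0.76 over the members and 0.06 over all genes. In 80 members all MN1_WT libraries lay below all aged_WT libraries after TMM scaling, against 19.4% of all genes. By subunit, 21 of 47 large-subunit and 15 of 31 small-subunit rows fell, and Rpl7l1 was the 1 member above 0, at 0.00 ± 0.114 (SE; adjusted p = 0.985, edgeR).

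Rpl22l1 had the smallest p in MN1_WT against aged_WT, with 64.7, 60.0 and 49.8 CPM in the libraries labelled MN1_WT against 138, 145 and 151 CPM in aged_WT. The groups were far apart, and MN1_WT replicate 3 with high Mn1 lay between the other 2 of its group. The log2 fold change was -1.46 ± 0.182 (SE; adjusted p = 0.00604, edgeR). Rpl31, a protein at the rim of the exit tunnel, had 443, 512 and 387 CPM in MN1_WT and 936, 980 and 979 CPM in aged_WT, at -1.27 ± 0.179 (SE; adjusted p = 0.00782, edgeR). Rps27rt was at -1.38 ± 0.197 (SE; adjusted p = 0.00782, edgeR). These 3 genes were lower in each fit that left out 1 library, and the share of all genes that did so was not counted. Rpl36a and Rps25 had the next smallest p, at -1.25 ± 0.212 and -1.01 ± 0.173 (SE; adjusted p = 0.0152 and 0.0157, edgeR).

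Without MN1_WT replicates 2 and 4, 11 members fell and the median was -0.67. The count was 25 without MN1_WT replicate 3, 4 without replicate 2 and 6 without replicate 4 of that group, and 6, 3 and 3 without aged_WT replicates 1, 6 and 7. In these 7 fits 3.45 to 28.7% of members and 0.45 to 5.28% of all genes were called lower. Of the B cell markers 1 of 15 fell, with sums of 71.8 to 454 CPM in MN1_WT libraries and 598 to 1310 CPM in aged_WT libraries. Of the stem and progenitor markers 0 of 8 passed in edgeR, with sums of 381 to 4280 CPM in MN1_WT libraries and 385 to 418 CPM in aged_WT libraries. Their part in the result was not tested.

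In MN1_KO against aged_KO few members were called. Rplp2, Rpl12, which forms the base of the stalk, and Rps13 rose, 3 of 87 members against 21.1% of all genes. Rps4l and Rpl22l1 fell, 2 of 87 members against 16.8% of all genes (edgeR). After TMM scaling all MN1_KO libraries lay above all aged_KO libraries in 12 members and below in 1, against 27.7% and 22.4% of all genes. The median was 0.19 over the members and 0.08 over all genes. Rplp2 had 638, 656 and 632 CPM in MN1_KO and 272, 291 and 411 CPM in aged_KO, with no overlap and a log2 fold change of 0.61 ± 0.204 (SE; adjusted p = 0.0364, edgeR). Rpl12 and Rps13 were at 0.56 ± 0.197 and 0.47 ± 0.172 (SE; adjusted p = 0.0452 and 0.0485, edgeR). Rps4l, annotated as a transcribed pseudogene, had 0.329, 0.385 and 0.566 CPM in MN1_KO and 3.84, 3.34 and 8.22 CPM in aged_KO, and fell by 3.92 ± 0.661 (SE; adjusted p = 0.00301, edgeR). Rpl22l1 fell by 0.50 ± 0.179 (SE; adjusted p = 0.0481, edgeR), although its CPM overlapped, at 68.6 to 87.0 in MN1_KO and 70.7 to 107 in aged_KO.

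Rps4l was the 1 call of a member that held in every fit with a library left out. The share of all genes with such calls was not counted. Without aged_KO replicate 10 the members higher numbered 14, which was 16.1% of members against 13.3% of all genes. Without MN1_KO replicate 8 they numbered 1, against 27.5% of all genes, and without any other 1 library 0, against 8.59 to 12.3%. The members lower numbered 4 without MN1_KO replicate 8 and 3 without aged_KO replicate 3, against 24.5% and 10.8% of all genes. In the other fits they numbered 1, against 9.08 to 12.8% of all genes. Of the assembly genes, 9 of 22 rose in MN1_KO against aged_KO and 0 fell, with Tsr2, a chaperone of Rps26, at 1.02 ± 0.213 and Nob1, the nuclease that finishes 18S rRNA, at 1.33 ± 0.293 (SE; adjusted p = 0.00624 and 0.00788, edgeR). RNA polymerase I genes rose in 5 of 12 cases. Stem and progenitor markers rose in 8 of 8 cases, with sums of 1070 to 4690 CPM in MN1_KO and 249 to 324 CPM in aged_KO. Primary granule markers fell in 6 of 6 cases, with sums of 2360 to 4240 CPM in MN1_KO and 5430 to 11500 CPM in aged_KO, and neutrophil markers in 7 of 12, with sums of 26000 to 98500 CPM in MN1_KO and 114000 to 137000 CPM in aged_KO. T and NK cell markers rose in 9 of 14 cases and fell in 1, with sums of 179 to 239 CPM in MN1_KO and 125 to 200 CPM in aged_KO. The part of these cells in the result was not tested.

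Ribosomal protein mRNAs are short, and the fold change of other genes also varied with length. The effective lengths of the 88 members with any counts had a median of 619.5 bases. In aged_KO against aged_WT, other genes of 300 to 500 bases had a median log2 fold change of -0.28 (197 genes), against -0.55 for the 25 members of that length. Other genes above 4000 bases were at 0.14. In MN1_WT against aged_WT, other genes of 300 to 500 bases were at -0.75 (217 genes), close to the -0.81 of the members. At 800 to 1200 bases they were at -0.23 (1097 genes) and the 11 members at -0.70. In MN1_KO against MN1_WT, other genes of 300 to 500 bases were at 0.17 and the members at 0.44. Effective lengths differed between the tables. Relative to the mean over libraries they were 5.8 to 14.2 bases longer in aged libraries and 4.1 to 19.3 bases shorter in MN1 libraries. With these lengths as offsets, 46 members were lower in aged_KO against aged_WT and 34 in MN1_WT against aged_WT, with medians of -0.52 and -0.72. These were 53.5 and 39.1% of members, against 15.7 and 2.39% of all genes. Whether transcript length or its capture had a further part was not tested.

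**Figure D5:**
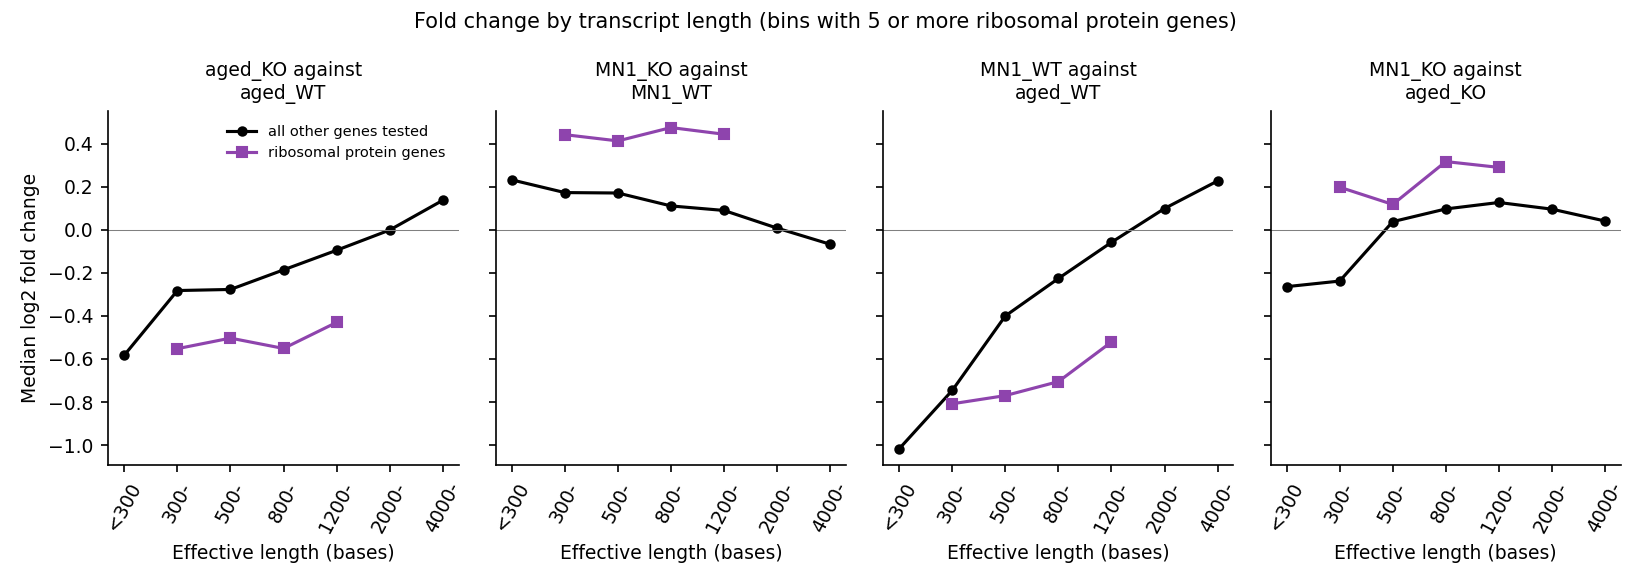
Median log2 fold change (y axis) of all other genes tested (circles) and of ribosomal protein genes (squares) in bins of effective length (x axis), in 4 comparisons; a square is drawn where a bin holds 5 or more members. In aged_KO against aged_WT the members lie below the other genes in each bin drawn, at -0.55 against -0.28 for 300 to 500 bases, and in MN1_WT against aged_WT they nearly meet in that bin, at -0.81 against -0.75.

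The starts of the transcripts were read for the 68 members that have an entry in the RefSeq promoter table (GRCm38.p6). A start was counted as TOP-like where the annotated first base was C and the next 4 or more bases were C or T. This held for 15 of 68 members, 22.1%, and for 3.01% of 27025 genes. Of members lower in aged_KO 7 of 35 had such a start, 20.0%, and of members tested and not called 7 of 30, 23.3%. Annotated starts can lie some bases away from the starts used in these cells. The first 25 bases of 6 members with a TOP-like start are shown with the C and the run in capitals, followed by 4 of the members with the smallest p whose annotated start is not TOP-like:
Rps27rt: CTTTCCggcggtgacgacctcccta
Rps15a: CTTCCCTCgccggtgagtgagtgtt
Rpl35: CTCTTTCTCTCgaaccaggctgctt
Rps18: CTCTCTTCCacaggaggcctacacg
Rpl35a: CTCTTTCCgccatcttggcgcctgt
Rpl15: CTTCCTTTCCTCTggcggcagccat
Rpl22: gcaatagctggccgatcgttactta
Rpl39: tagcgacttcttctaatcgcgttct
Rps7: ccacctacttccgctgtccccacct
Rpl13a: gacctcctcctttcccaggcggctg
In GRCm38.p6 these lie, in the same order, at chr9:114982715-114982739, chr7:118116123-118116147, chr2:39005107-39005131 and chr17:33955641-33955665 on the minus strand, chr16:33056482-33056506 on the plus strand, chr14:18270962-18270986 on the minus strand, chr4:152325726-152325750 on the plus strand, and chrX:37085198-37085222, chr12:28635929-28635953 and chr7:45128721-45128745 on the minus strand. Rpl39, Rps7 and Rpl13a hold runs of pyrimidines a few bases inside their annotated start. The tract of Rpl15 was 13 bases long and that of Rps27rt 6 bases. The motif CCGGAAG, searched on both strands in the 300 bases from 250 before to 50 after the start, was present in 26 of 68 members, 38.2%, and in 9.93% of all genes. It was present in 15 of 35 members lower in aged_KO, 42.9%, and in 10 of 30 not called, 33.3%.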

How the data were processed

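Bulk RNA sequencing was analysed from the processed tables of 12 libraries in 4 groups of 3, with groups taken from the labels. The authors deposited expected counts, TPM and FPKM per gene symbol; per the submitters' processing notes, RSEM 1.2.28 and Bowtie2 2.3.4.3 were used with the build mm10, and the gene annotation is not given in the sources used here. Non-whole expected counts made up 5.2 to 6.84% of genes per library. The deposited expected counts were rounded and tested with edgeR 4.0.16 in R 4.3.3 (filterByExpr, TMM, robust quasi-likelihood F test, Benjamini-Hochberg adjustment over all genes tested, threshold 0.05). The knockout effects were fitted on the 6 libraries of each table, and the other contrasts on all 12 with 4 group means. CPM are expected counts scaled to the library total without TMM, so a CPM ratio can differ from the fitted fold change. Counts of members and genes with no overlap between groups used CPM divided by the TMM factor, so printed CPM can give another overlap. The deposited TPM were used for levels between genes, and the deposited FPKM with the counts for effective lengths. Alternatives were DESeq2 1.42.0, limma-trend (limma 3.58.1), other scalings and filters, and libraries left out. Merging near-identical copies (at least 98% identity over 300 bases, GENCODE vM21) and length offsets were chosen after seeing the data. Named members were the 5 with the smallest p in each direction, the highest and lowest 5 by TPM, set subsets, and those farthest from the median. The members printed in addition were chosen after their values were seen. The members and lists were chosen with earlier results of these data known. The scripts were tested on simulated data. The values of some genes are not reported here.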

Additional observations from a re-analysis of the deposited data

Results flagged for a closer look

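The knockout effect differed between the MN1 and the aged libraries for 15 ribosomal protein genes, by the test of the difference itself (edgeR, adjusted p below 0.05), of which 14 are given here. The difference, MN1 minus aged on the log2 scale, was 1.24 for Rpl39, 1.36 for Rps27rt, 1.12 for Rps15a, 1.26 for Rps7, 1.14 for Rpl27a and 1.2 for Rpl35. It was 1.17 for Rpl17, 1.33 for Rpl36a, 1.38 for Rpl13a, 1.10 for Rpl31 and 1.17 for Rpl22. It was 1.09 for Rpl21, 1.22 for Rps24 and 1.00 for Rpl36. In each of the 15 the aged_KO value was below aged_WT and the MN1_KO value above MN1_WT. Their choice by a positive difference of these effects favours such signs, and most other members had them too. Of 86 members, 3 were above 0 in aged_KO against aged_WT and 84 in MN1_KO against MN1_WT. Over all genes these were 6081 of 12771 and 7200 of 13525. Without MN1_WT replicates 2 and 4, which had Mn1 at the level of the aged libraries, a single MN1_WT library was left. The median difference over all members tested was then 0.87, against 0.97 with them. Of the 15, 0 passed without either of these libraries alone, any 1 aged_WT library, aged_KO replicate 3 or 9, or MN1_KO replicate 7. In those fits 0.148 to 0.571% of all genes passed above 0.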

How the results depend on the processing

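The median log2 fold change of the members kept its sign in all 5 comparisons under every alternative run. Counts of members called moved more. In aged_KO against aged_WT, lower members numbered 7 when all 12 libraries were fitted, 8.05% of members against 4.18% of all genes. With 1 library left out they numbered 10 to 79, and the median ran from -0.71 to -0.38. In those fits 11.5 to 91.9% of members and 10.0 to 17.1% of all genes were lower. In MN1_KO against MN1_WT, DESeq2 called 3 higher, 3.49% of members against 1.62% of all genes. Leaving out 1 library gave 0 in either direction and medians of 0.34 to 0.48. Of all genes, at most 3.3% were higher and 3.19% lower in those fits. For the difference of the knockout effects, higher members numbered 65 with DESeq2 (1 lower), 9 with no filter on low counts and 28 with limma-trend. These were 74.7, 10.2 and 32.2% of members, against 5.09, 0.713 and 2.22% of all genes. Without MN1_WT replicates 2 and 4 the median was 0.87. With 1 library left out higher members numbered 0 to 53, with medians of 0.81 to 1.16. In those fits 0 to 60.9% of members and 0.148 to 13.6% of all genes were higher. In MN1_WT against aged_WT, lower members numbered 73 with DESeq2, 11 without MN1_WT replicates 2 and 4, and 3 to 25 with 1 library left out, with medians of -0.81 to -0.67. The lower members with DESeq2 in MN1_WT against aged_WT were 83.9% of members, against 7.32% of all genes. With 1 library left out, 3.45 to 28.7% of members and 0.45 to 1.92% of all genes were lower. In MN1_KO against aged_KO, higher members numbered 7 with DESeq2, 8.05% of members against 22.8% of all genes. They numbered 1 with DESeq2's size factors or no filter, against 19.7 and 14.3% of all genes. With these groups fitted alone they numbered 0, against 18.9%. With 1 library left out they numbered 0 to 14, at most 16.1% of members, against 8.59 to 27.5% of all genes. Lower members there numbered 1 with the stricter filter, limma-trend, these groups alone or length offsets, against 13.5 to 18.6% of all genes. With 1 library left out they numbered 1 to 4, and the median ran from 0.03 to 0.40. In those fits 1.15 to 4.6% of members and 9.08 to 24.5% of all genes were lower. Without aged_KO replicate 3 the members' median of 0.03 lay below the 0.09 over all genes. The mean summed share was 15.4, 12, 9.40 and 14.8% of TPM in MN1_KO, MN1_WT, aged_KO and aged_WT, and 5.87% in MN1_KO with TMM scaling. With 1 library left out it was 6.46 to 6.56% in MN1_KO, 4.39 to 5.17% in MN1_WT, 3.85 to 4.74% in aged_KO and 6.84 to 7.49% in aged_WT. The cause of these changes was not tested. No paired analysis was possible because the groups compared share no replicate numbers. Rows with few counts, such as Rps27, Rps4l and Rpl39l, limit what depth can show.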
